A study of Mus musculus with 8 samples.

Results

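Neurotransmitter-gated receptor genes encode the proteins with which neurons sense glutamate, GABA, glycine and acetylcholine. They were taken from the expression table by symbol: AMPA (Gria), kainate (Grik), NMDA (Grin), delta (Grid) and metabotropic (Grm) glutamate receptors, GABA-A (Gabr) and GABA-B (Gabbr) receptors, glycine receptors (Glr) and nicotinic acetylcholine receptors (Chrn). The symbols gave 68 genes of 55078 in the table. The study asked about Dip2c deletion, and its RNA came from 46C, a mouse embryonic stem cell line, under a WT label and a KO label. Each label was sampled in a KSR series, proliferating at day 0 and after 4 days in KSR induction medium, and in an N2B27 series, proliferating at day 0 and after 6 days in N2B27 induction medium. There were 8 libraries, 1 per label and condition, and the labels do not say how many KO clones were used or which exons were deleted.

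Ionotropic receptors are rings of subunits around an ion channel that opens when the transmitter binds, and metabotropic receptors act through G proteins. AMPA, kainate and NMDA channels are tetramers opened by glutamate and excite the cell, nicotinic channels are pentamers opened by acetylcholine, and GABA-A and glycine channels pass chloride. A working receptor usually needs particular partners, such as an obligatory subunit, so the level of each subunit gene bears on which combinations could form. In neural tissue, GABA-A and glycine channels and nicotinic channels appear early, and the makeup of receptors changes as neurons mature.

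Levels were given as FPKM, which divides the fragments of a gene by its transcript length and by the size of the library, so genes can be compared with each other. How many reads lie behind a value is unknown. Library sums ran from 508556 to 635836 FPKM, and receptor genes held 0.0183% to 0.0475% of them. Dip2c itself ranged from 2.74 to 5.78 FPKM under the WT label and from 2.91 to 4.43 FPKM under the KO label. A value over the whole gene does not check a deletion of a few exons, so the genotype is given as the label. Transcripts of 3 genes of the Y chromosome, Ddx3y, Eif2s3y and Uty, were found under the WT label in all 4 conditions and were listed at 0 under the KO label in all 4. Stem cell markers (Nanog, Esrrb, Zfp42, Pou5f1, Tfcp2l1 and Klf4) summed to 1748 to 2097 FPKM at day 0 and to 15.2 to 119 in the differentiated libraries. Neural progenitor markers (Sox1, Pax6, Nes, Fabp7, Hes5 and Cdh2) summed to 6.25 to 9.87 FPKM at day 0 and to 238 to 712 afterwards.

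Most receptor genes were low. Of the 68 genes, 40 stayed below 1 FPKM in every library, 12 of them below 0.1 FPKM, and Gabra6 was listed at 0 in all 8. At least 5 FPKM in a library was reached by 15 genes, among them 6 nicotinic, 2 kainate and 2 metabotropic genes and 1 gene each of the AMPA, NMDA, GABA-B and glycine families. By highest value the order was Gabbr1 (62.0 FPKM), Chrna4 (44.3), Grik5 (29.8), Grin1 (28.4) and Grik3 (19.1), followed by Grm2, Glra1, Chrna3 and Grm4 between 11.2 and 14.3 FPKM. Of the 67 genes above 0 in a library, 31 were higher in all 4 differentiated libraries than in all 4 day 0 libraries, against 19.9% of all symbols above 0 in a library. The reverse held for 5 (Chrnd, Gabrp, Gabrr1, Grin1 and Grin2c), against 14.6% of all symbols.

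**Figure D1:**
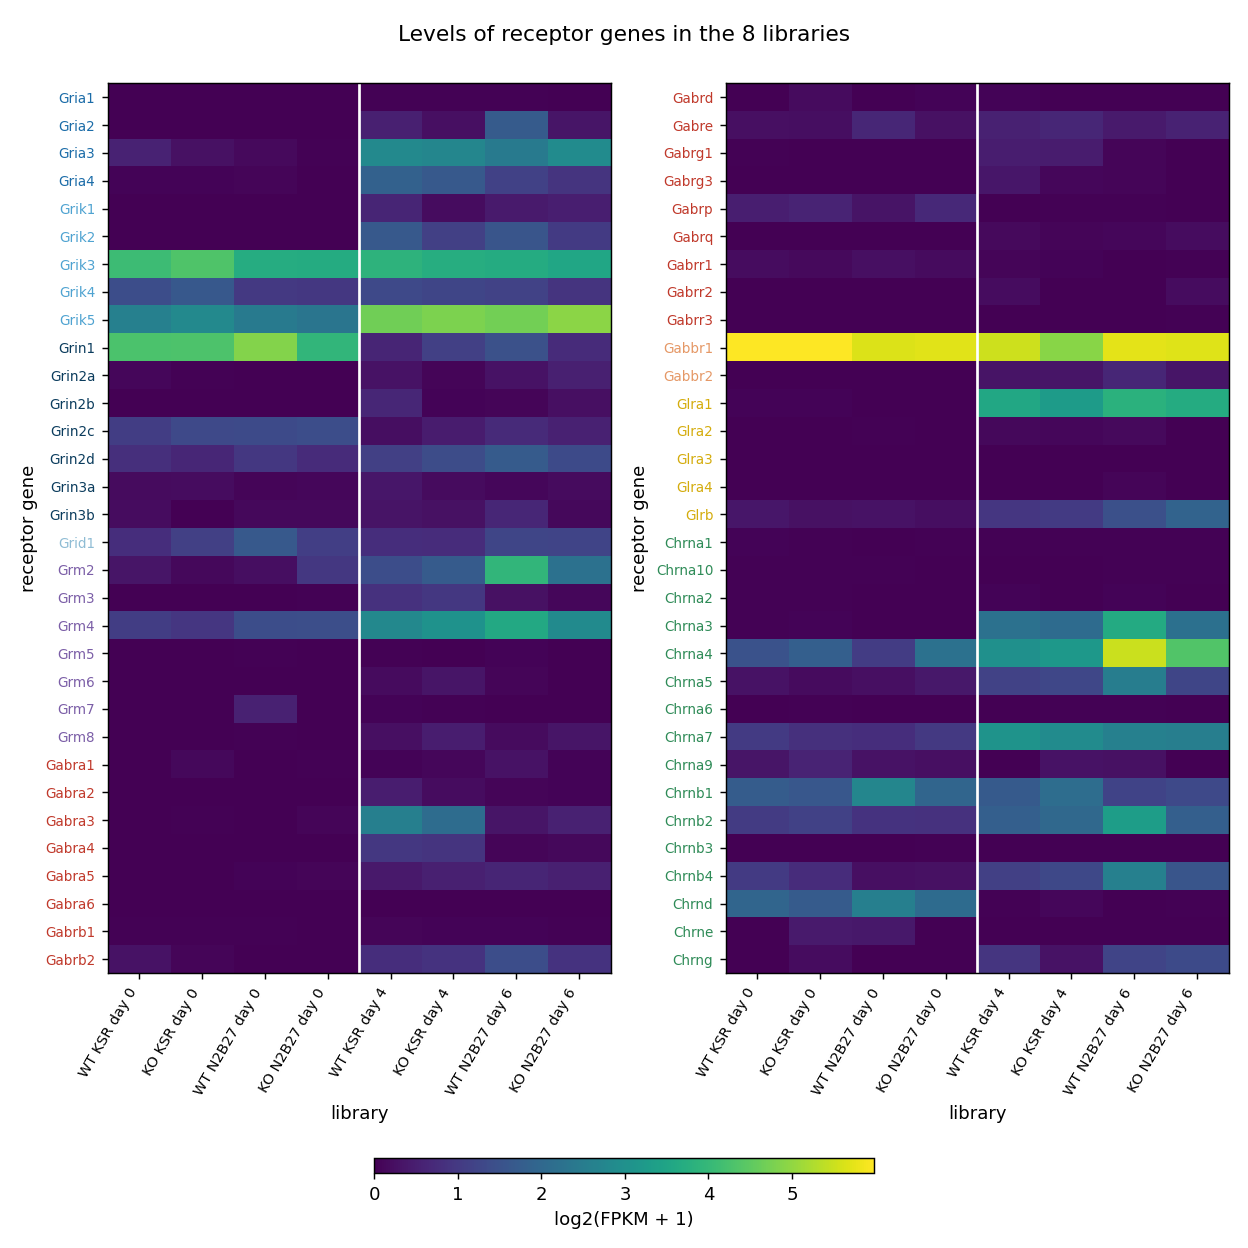
Levels of 64 of the 68 receptor genes as log2(FPKM + 1), 1 row per gene coloured by family and 1 column per library, with day 0 libraries left of the white line. Most rows are dark throughout; Gabbr1 is bright in all 8 libraries, Grin1 and Chrnd only left of the line, and Glra1 and Gria3 only right of it.

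Tests were run on genes with at least 1 FPKM in at least 2 libraries, which 26 receptor genes of 15965 genes met. Of these 26, 13 met it through both kinds of library. Through differentiated libraries alone, 11 met it: Gria3, Gria4, Grik2, Grin2d, Grm2, Gabra3, Glra1, Glrb, Chrna3, Chrna5 and Chrng. Through day 0 libraries alone, 2 met it: Grin2c and Chrnd. In these 11 and 2 genes the filter itself favours a difference toward that side, without fixing whether a test is passed. The comparisons of differentiation used limma on log2(FPKM + 1), with the WT- and KO-labelled libraries as the 2 replicates of a condition and the label as a term, and p-values adjusted by the Benjamini-Hochberg method over all 15965 genes. A change is given below as the fitted difference in log2(FPKM + 1) with its standard error (SE), which understates the fold change of low genes. Pairs of FPKM values give the WT-labelled library and then the KO-labelled one. In these bulk libraries, fewer cells of a type and less RNA per cell cannot be told apart.

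Between KSR day 0 and KSR day 4, 16 of the 26 passed an adjusted p of 0.05, 12 higher and 4 lower. Of all genes tested, 48.5% passed, 28.5% higher and 20.0% lower. Between N2B27 day 0 and day 6, 21 of the 26 passed, 17 higher and 4 lower. Of all genes tested, 55.9% passed, 29.7% higher and 26.2% lower. Genes that rose in both series included Gria3, Gria4, Grik2, Grik5, Grm4, Glra1, Glrb, Chrna3, Chrna4 and Chrna7. The genes Grin1, Grin2c and Chrnd fell in both. The counts of calls include the genes named above that met the filter through differentiated or day 0 libraries alone. Among the KSR rises these are Gria3, Gria4, Grik2, Gabra3, Glra1, Glrb and Chrna3. Of the genes that met it through differentiated libraries alone, all but Gabra3 are among the N2B27 rises. The shares of all genes tested come from genes under the same filter. How many of those met it through 1 kind of library alone was not counted. The shares therefore do not remove the effect of the filter from the counts of receptor genes.

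**Figure D2:**
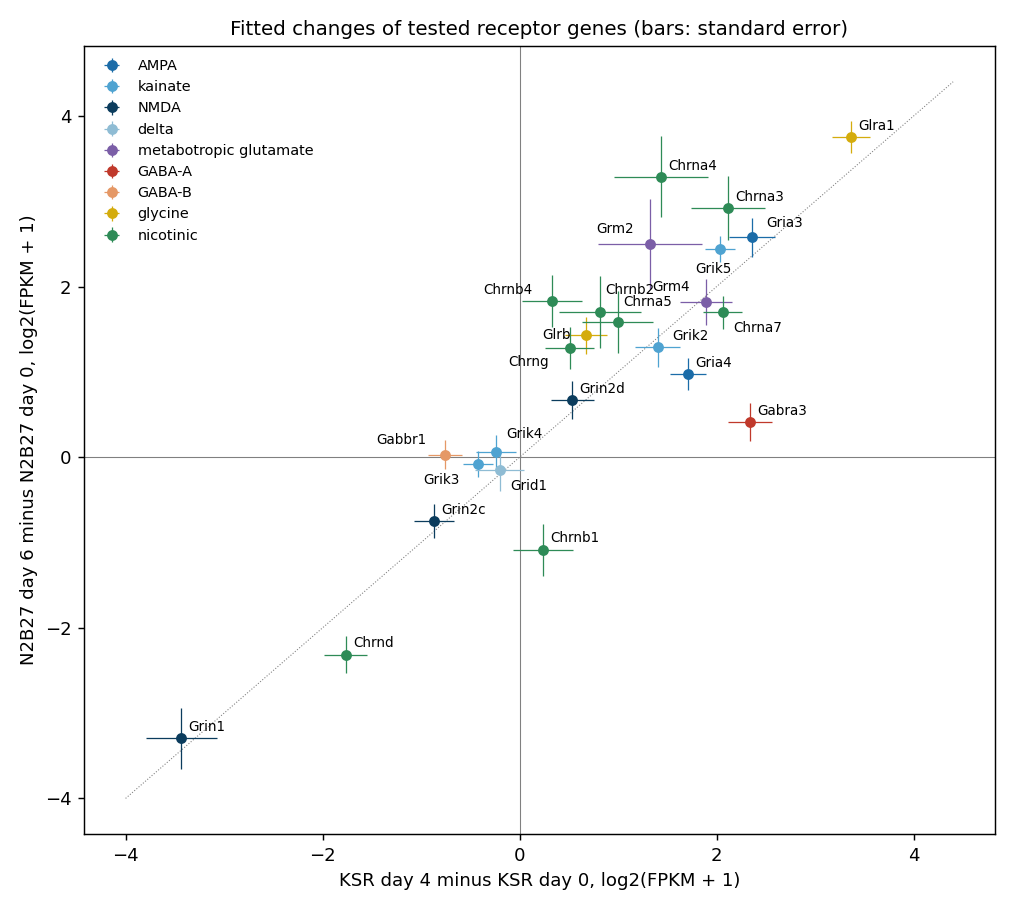
Fitted change of 25 of the 26 tested receptor genes in the KSR series (horizontal) and the N2B27 series (vertical), as differences in log2(FPKM + 1), with standard errors as bars and families as colours; the dotted line marks equal changes. Glra1 has the largest rise in both series and Grin1 the largest fall, and Gabra3 lies far below the line.

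AMPA receptors carry most fast excitation in the brain. Gria3 (chrX:41400854-41678601 in GRCm38/mm10), which encodes GluA3, stood at 0.481 and 0.210 FPKM at KSR day 0 and at 0.113 and 0.0257 FPKM at N2B27 day 0. After differentiation it stood at 6.00 and 5.74 FPKM at KSR day 4 and at 4.50 and 6.38 FPKM at N2B27 day 6. All 4 differentiated libraries were above all 4 day 0 libraries, by a factor of at least 9 (4.50 against 0.481 FPKM), and Gria3 rose by 2.36 (SE 0.23, adjusted p 0.000261) in the KSR series and by 2.58 (SE 0.23, adjusted p 0.000153) in the N2B27 series. Gria4 (chr9:4417896-4796234), which encodes GluA4, stood at 0.0481 and 0.0348 FPKM at KSR day 0 and at 0.0628 and 0.0123 FPKM at N2B27 day 0. It stood at 2.63 and 2.20 FPKM at KSR day 4 and at 1.21 and 0.872 FPKM at N2B27 day 6 and did not overlap day 0 either. Its rise was 1.71 (SE 0.18, adjusted p 0.000405) in KSR and 0.97 (SE 0.18, adjusted p 0.00409) in N2B27. Gria2, whose product keeps calcium out of the channel once its transcript is edited, was listed at 0 in all day 0 libraries and stood at 0.437 and 0.193 FPKM at KSR day 4 and at 2.31 and 0.268 FPKM at N2B27 day 6. Only the WT-labelled N2B27 day 6 library was above 1 FPKM, so Gria2 was not tested. Gria1 reached at most 0.0272 FPKM.

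Kainate receptors pair the subunits GluK1 to GluK3, which can form channels alone, with GluK4 or GluK5, which need them. Grik5 (chr7:25009849-25072346), encoding GluK5, stood at 5.03 and 6.00 FPKM at KSR day 0 and at 4.41 and 4.03 FPKM at N2B27 day 0. It stood at 24.6 and 26.7 FPKM at KSR day 4 and at 25.0 and 29.8 FPKM at N2B27 day 6. Every differentiated library was at least 4 times as high as every day 0 library, and the 2 media and labels lay close together after differentiation. Grik5 rose by 2.03 (SE 0.15, adjusted p 9.00e-05) in KSR and by 2.44 (SE 0.15, adjusted p 3.63e-05) in N2B27, from mean levels of 5.51 to 25.6 FPKM and of 4.22 to 27.4 FPKM. Grik3 (chr4:125490700-125714173), encoding GluK3, had the highest level of the family at day 0, at 16.1 and 19.1 FPKM at KSR day 0 and at 11.9 and 11.9 FPKM at N2B27 day 0. It stood at 13.5 and 12.1 FPKM at KSR day 4 and at 11.8 and 10.7 FPKM at N2B27 day 6 after differentiation, with overlapping ranges. Its difference was -0.43 (SE 0.15, adjusted p 0.0551) in KSR and -0.08 (SE 0.15, adjusted p 0.681) in N2B27, so that neither passed. Grik3 was thus the highest kainate gene in all 4 day 0 libraries and Grik5 in all 4 differentiated ones. Grik2 (chr10:49094833-49788766), encoding GluK2, was listed at 0 in the 4 day 0 libraries and stood at 2.18 and 1.20 FPKM at KSR day 4 and at 1.96 and 1.02 FPKM at N2B27 day 6. It rose by 1.40 (SE 0.23, adjusted p 0.00258) in KSR and 1.29 (SE 0.23, adjusted p 0.00316) in N2B27. Grik4 lay between 0.865 and 2.13 FPKM in the 8 libraries and did not pass, and Grik1 was listed at 0 at day 0 and reached at most 0.538 FPKM.

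NMDA receptors need GluN1, from Grin1, together with GluN2 or GluN3 subunits, and pass current when transmitter binding coincides with depolarisation. Grin1 (chr2:25291181-25319187, minus strand) moved against most of the other receptor genes. It stood at 18.6 and 18.9 FPKM at KSR day 0 and at 28.4 and 14.2 FPKM at N2B27 day 0. It stood at 0.533 and 1.19 FPKM at KSR day 4 and at 1.79 and 0.664 FPKM at N2B27 day 6. The lowest day 0 library (14.2 FPKM) was above the highest differentiated one (1.79 FPKM), and Grin1 fell by 3.43 (SE 0.36, adjusted p 0.000340) in KSR and by 3.29 (SE 0.36, adjusted p 0.000343) in N2B27. In the KSR series the mean went from 18.8 to 0.860 FPKM, a 21.8-fold difference. The antisense gene Grin1os shares 1307 of the 9700 exon bases of Grin1 (13.5%). Whether the counting used strand is not given in the sources used here, so reads in the shared bases cannot be assigned. Grin1os itself stood at 0.724 to 1.21 FPKM at day 0 and at 0 to 0.0740 FPKM after differentiation.

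The GluN2 genes were low throughout, including where Grin1 was high. Grin2c (chr11:115249169-115267243) stood at 1.12 and 1.51 FPKM at KSR day 0 and at 1.55 and 1.65 FPKM at N2B27 day 0. It stood at 0.162 and 0.381 FPKM at KSR day 4 and at 0.647 and 0.453 FPKM at N2B27 day 6. All day 0 libraries were above all differentiated ones, and Grin2c fell by 0.87 (SE 0.20, adjusted p 0.0115) in KSR and by 0.75 (SE 0.20, adjusted p 0.0179) in N2B27. The KSR call was lost without the KO-labelled day 0 library (adjusted p 0.0863) or the WT-labelled day 4 library (0.0898), and the N2B27 call without either day 0 library (0.0794 without WT, 0.0618 without KO) or the KO-labelled day 6 library (0.0741). Grin2d (chr7:45831883-45878378) stood at 0.734 and 0.568 FPKM at KSR day 0 and at 0.956 and 0.677 FPKM at N2B27 day 0. It stood at 1.19 and 1.60 FPKM at KSR day 4 and at 2.30 and 1.53 FPKM at N2B27 day 6 and rose by 0.67 (SE 0.22, adjusted p 0.0357) in N2B27, whereas its KSR difference of 0.53 (SE 0.22, adjusted p 0.0838) did not pass. Leaving out either KSR day 0 library, either N2B27 day 0 library or the WT-labelled N2B27 day 6 library ended the N2B27 call, at adjusted p 0.0607 to 0.152, and so did testing without a filter on low values (0.0828). Grin2d shares 643 exon bases with the antisense gene Gm45441, which stood at 0.169 to 1.30 FPKM. Grin2a and Grin2b, the main GluN2 genes of the forebrain, reached at most 0.449 and 0.573 FPKM. Grin3a and Grin3b reached at most 0.284 and 0.563 FPKM.

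The promoter of Grin1 is shown because Grin1 fell by more than any other of the 26 tested genes in both series. Promoter windows are those of RefSeq on GRCm38.p6, from 250 bases before to 50 bases after a start. They were found for 48 of the 68 genes, as 56 windows. Capitals mark matches, on either strand, to the letters GGGCGG (a GC box, CCGCCC on the other strand), CAGCTG or CAGATG (E-boxes), or TTCAGCACC (a core stretch of the REST binding motif). In all 32851 windows the shares with a match were 35.7%, 16.3%, 17.2% and 0.371%, in that order, and of the 56 receptor windows 28, 7, 3 and 1 held one (12.5% for CAGCTG, 5.36% for CAGATG). The Grin1 window lies at chr2:25319138-25319437 on the minus strand, with 33 CpG and 1 GC box.
Grin1: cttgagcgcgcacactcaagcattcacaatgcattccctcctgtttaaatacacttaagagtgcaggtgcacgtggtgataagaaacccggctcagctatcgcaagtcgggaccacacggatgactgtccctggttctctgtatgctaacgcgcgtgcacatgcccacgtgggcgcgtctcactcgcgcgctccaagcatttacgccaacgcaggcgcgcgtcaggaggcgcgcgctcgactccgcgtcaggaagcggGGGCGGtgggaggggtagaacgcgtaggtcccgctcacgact

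Delta receptors resemble glutamate channels and work as synaptic organisers. Grid1 (chr14:34820108-35583379) stood between 0.682 and 2.17 FPKM, with overlapping ranges, and passed in neither series (-0.20, SE 0.25, in KSR and -0.15, SE 0.25, in N2B27).

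Among metabotropic receptors, mGlu2 and mGlu3 (Grm2 and Grm3) and mGlu4 (Grm4) lower cyclic AMP through inhibitory G proteins and damp release at synapses. Grm4 (chr17:27422387-27521403) stood at 1.14 and 0.927 FPKM at KSR day 0 and at 1.64 and 1.69 FPKM at N2B27 day 0. It stood at 5.87 and 7.27 FPKM at KSR day 4 and at 11.2 and 6.26 FPKM at N2B27 day 6. The 2 states did not overlap, and Grm4 rose by 1.89 (SE 0.27, adjusted p 0.00133) in KSR and by 1.82 (SE 0.27, adjusted p 0.00132) in N2B27. Grm2 (chr9:106643095-106656082, minus strand) stood at 0.266 and 0.0975 FPKM at KSR day 0 and at 0.162 and 0.944 FPKM at N2B27 day 0. It stood at 1.66 and 2.27 FPKM at KSR day 4 and at 14.3 and 3.70 FPKM at N2B27 day 6, and the WT-labelled N2B27 day 6 library was 3 or more times higher than each of the other 7. Grm2 rose by 2.50 (SE 0.53, adjusted p 0.00645) in N2B27, a call that was lost without the WT-labelled N2B27 day 0 library (adjusted p 0.0710), and differed by 1.32 (SE 0.53, adjusted p 0.0766) in KSR, which did not pass. Grm2 shares 470 of 4894 exon bases with the antisense gene Gm28111, which reached at most 0.170 FPKM. Grm3 was at most 0.0218 FPKM at day 0 and stood at 0.817 and 0.948 FPKM at KSR day 4 and at 0.210 and 0.0699 FPKM at N2B27 day 6. The group I gene Grm5 reached at most 0.0419 FPKM, and Grm6, Grm7 and Grm8 at most 0.471 FPKM.

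Grm2 was the 1 receptor gene whose window held the REST stretch, and it is shown for that reason and for its level in the WT-labelled N2B27 library. The window lies at chr9:106656060-106656359 on the minus strand and holds 4 GC boxes besides.
Grm2: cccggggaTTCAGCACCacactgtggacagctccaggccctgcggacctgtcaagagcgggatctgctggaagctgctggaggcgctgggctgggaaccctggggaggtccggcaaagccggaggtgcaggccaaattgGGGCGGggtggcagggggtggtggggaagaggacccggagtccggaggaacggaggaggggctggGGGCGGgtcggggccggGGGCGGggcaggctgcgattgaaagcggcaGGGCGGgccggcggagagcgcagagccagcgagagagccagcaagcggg

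GABA-A receptors assemble from 19 genes in the table, usually as alpha, beta and gamma subunits in 1 pentamer. Gabra3 (chrX:72432681-72656848), an alpha subunit, stood at 0 and 0.0213 FPKM at KSR day 0 and at 0 and 0.0537 FPKM at N2B27 day 0. It stood at 4.96 and 3.36 FPKM at KSR day 4 and at 0.267 and 0.464 FPKM at N2B27 day 6. The 2 KSR day 4 libraries were thus at least 7 times as high as any other library. Gabra3 rose by 2.33 (SE 0.22, adjusted p 0.000239) in KSR, whereas its N2B27 difference of 0.41 (SE 0.22, adjusted p 0.160) did not pass.

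GABA-A genes were mostly low: 16 of the 19 stayed under 1 FPKM, and Gabrb2 reached 1.68 FPKM in the WT-labelled N2B27 day 6 library. The gamma subunit genes Gabrg1 and Gabrg3 reached at most 0.396 and 0.294 FPKM, both in the WT-labelled KSR day 4 library. Gabra4 followed Gabra3 at a lower level, at 0.953 and 0.863 FPKM in KSR day 4, 0.0603 and 0.0844 FPKM in N2B27 day 6 and 0 at day 0. On chromosome 7, Gabra5 lies beside Gabrg3 and reached at most 0.525 FPKM. On the X chromosome, Gabra3 lies between Gabre and Gabrq, which reached at most 0.557 and 0.154 FPKM. Gabrp, encoding the pi subunit, was higher at day 0, at 0.238 to 0.605 FPKM against 0 to 0.0230 FPKM.

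GABA-B receptors are G protein-coupled and need both GABBR1, which binds GABA, and GABBR2, which couples to the G protein and carries the pair to the surface. Gabbr1 (chr17:37045966-37075067) was the highest receptor gene in all 8 libraries, at 61.9 and 62.0 FPKM at KSR day 0 and at 49.4 and 51.0 FPKM at N2B27 day 0. It stood at 44.7 and 29.3 FPKM at KSR day 4 and at 51.9 and 50.3 FPKM at N2B27 day 6. The KSR day 4 pair was the lowest and the other 3 pairs lay between 49.4 and 62.0 FPKM. Gabbr1 fell by 0.76 (SE 0.17, adjusted p 0.00973) in KSR and differed by 0.03 (SE 0.17, adjusted p 0.903) in N2B27. The KSR call was lost without the KO-labelled day 0 library (adjusted p 0.0830) and without the KO-labelled day 4 library (0.0583). Gabbr2 reached at most 0.558 FPKM, in the WT-labelled N2B27 day 6 library, and at most 0.0132 FPKM at day 0.

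Glycine receptors are pentamers of alpha subunits, which can form channels alone, and the beta subunit, which ties them to gephyrin at synapses. Glra1 (chr11:55514238-55608198), the alpha 1 gene of adult spinal cord and brainstem receptors, stood at 0.0459 and 0.0471 FPKM at KSR day 0 and at 0 and 0 FPKM at N2B27 day 0. It stood at 10.9 and 8.75 FPKM at KSR day 4 and at 13.2 and 11.8 FPKM at N2B27 day 6. The 2 states did not overlap, and Glra1 had the largest rise of the 26 genes in both series, by 3.37 (SE 0.19, adjusted p 3.30e-05) in KSR and by 3.75 (SE 0.19, adjusted p 1.83e-05) in N2B27. Its exons overlap those of the antisense gene Gm12236 by 141 bases, and Gm12236 was listed at 0 in all 8 libraries. Glrb (chr3:80843599-80913660), the beta gene, stood at 0.280 and 0.200 FPKM at KSR day 0 and at 0.217 and 0.167 FPKM at N2B27 day 0. It stood at 0.918 and 1.03 FPKM at KSR day 4 and at 1.73 and 2.76 FPKM at N2B27 day 6, with no overlap. Glrb rose by 1.43 (SE 0.21, adjusted p 0.00147) in N2B27 and by 0.67 (SE 0.21, adjusted p 0.0380) in KSR. The KSR call was lost without any 1 of the 4 KSR libraries (adjusted p 0.0861 to 0.209), without either N2B27 day 0 library (0.0512 in both cases), with no filter on low values (0.0653) and with libraries scaled to a common median (0.0590). Glra2, the alpha gene known from embryonic neurons, reached at most 0.112 FPKM, Glra3 0.0113 FPKM and Glra4 0.050 FPKM.

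**Figure D3:**
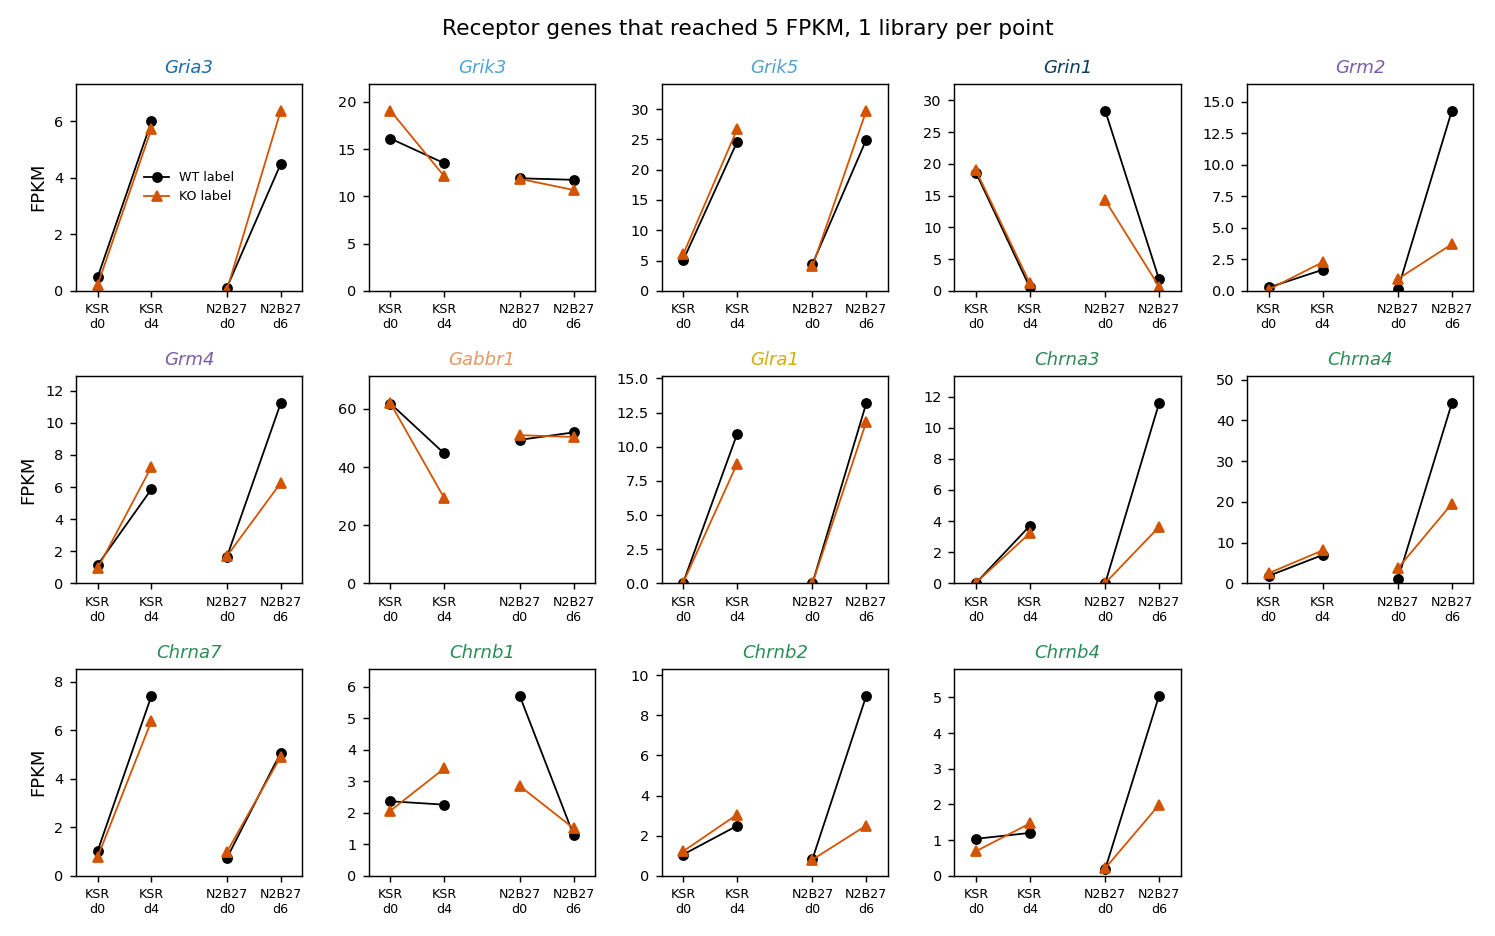
FPKM of 14 of the 15 receptor genes that reached 5 FPKM, 1 point per library (black circles WT label, orange triangles KO label), joined from day 0 to the differentiated condition within each series; each vertical axis starts at 0 and has its own range. Grik5, Glra1 and Gria3 rise in all 4 lines, and Grin1 falls in all 4. In Chrna3, Chrna4, Chrnb2, Chrnb4 and Grm2 the WT-labelled N2B27 day 6 library stands above all others, and by less in Grm4 and Glra1.

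Nicotinic receptors of neurons are built from alpha subunits such as alpha 3, alpha 4 and alpha 7 and beta subunits such as beta 2 and beta 4. Chrna4 (chr2:181018380-181043546), which with beta 2 forms the main nicotinic receptor of the brain, stood at 1.83 and 2.49 FPKM at KSR day 0 and at 1.08 and 3.71 FPKM at N2B27 day 0. It stood at 6.95 and 8.08 FPKM at KSR day 4 and at 44.3 and 19.6 FPKM at N2B27 day 6. All differentiated libraries were above all day 0 libraries, and the WT-labelled N2B27 day 6 library was more than 2 times as high as the next. Chrna4 rose by 3.29 (SE 0.47, adjusted p 0.00121) in N2B27. In KSR it rose by 1.44 (SE 0.47, adjusted p 0.0418), and this call was lost without any 1 of the 4 KSR libraries (adjusted p 0.130 to 0.179), with no filter (0.151), with scaled libraries (0.0563) and without a trend on the mean (0.0551). Chrnb2 (chr3:89746195-89764632), the beta 2 gene, stood at 1.06 and 1.22 FPKM at KSR day 0 and at 0.832 and 0.808 FPKM at N2B27 day 0. It stood at 2.49 and 3.05 FPKM at KSR day 4 and at 8.98 and 2.51 FPKM at N2B27 day 6 and rose by 1.70 (SE 0.42, adjusted p 0.0122) in N2B27, but not without the WT-labelled (adjusted p 0.10) or KO-labelled (0.0517) N2B27 day 0 library, nor without a filter on low values (0.0688). Its KSR difference was 0.81 (SE 0.42, adjusted p 0.149). Chrnb2 shares 1365 of 8380 exon bases (16.3%) with Adar on the other strand, which stood at 16.7 to 21.4 FPKM in all 8 libraries, so reads in the shared bases cannot be assigned. Chrna7 (chr7:63098692-63212569), which forms channels alone, stood at 1.02 and 0.773 FPKM at KSR day 0 and at 0.732 and 0.983 FPKM at N2B27 day 0. It stood at 7.43 and 6.40 FPKM at KSR day 4 and at 5.09 and 4.92 FPKM at N2B27 day 6, with no overlap and with the labels close together. Chrna7 rose by 2.06 (SE 0.20, adjusted p 0.000240) in KSR and by 1.70 (SE 0.20, adjusted p 0.000471) in N2B27.

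Chrna5, Chrna3 and Chrnb4 lie next to each other on chromosome 9 (chr9:54980880-55048779), 2331 and 1591 bases apart, and encode subunits of the nicotinic receptors of autonomic ganglia and of some brain nuclei. Chrna3 stood at 0.0172 and 0.0353 FPKM at KSR day 0 and at 0 and 0.0149 FPKM at N2B27 day 0. It stood at 3.70 and 3.22 FPKM at KSR day 4 and at 11.6 and 3.63 FPKM at N2B27 day 6. The 2 states did not overlap, and Chrna3 rose by 2.12 (SE 0.38, adjusted p 0.00364) in KSR and by 2.92 (SE 0.38, adjusted p 0.000742) in N2B27. Chrnb4 stood at 1.04 and 0.689 FPKM at KSR day 0 and at 0.189 and 0.211 FPKM at N2B27 day 0. It stood at 1.20 and 1.47 FPKM at KSR day 4 and at 5.05 and 1.99 FPKM at N2B27 day 6, so that the differentiated libraries were higher, by little in KSR. It rose by 1.82 (SE 0.30, adjusted p 0.00234) in N2B27, and its KSR difference of 0.33 (SE 0.30, adjusted p 0.405) did not pass. Chrna5 stood at 0.218 and 0.125 FPKM at KSR day 0 and at 0.177 and 0.299 FPKM at N2B27 day 0. It stood at 1.26 and 1.41 FPKM at KSR day 4 and at 4.79 and 1.37 FPKM at N2B27 day 6, with no overlap. Chrna5 rose by 1.58 (SE 0.36, adjusted p 0.00888) in N2B27, but not without the WT-labelled N2B27 day 0 library (adjusted p 0.0860), and its KSR difference of 0.99 (SE 0.36, adjusted p 0.0577) did not pass. In all 3 genes the WT-labelled N2B27 day 6 library was the highest.

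The windows of Chrna4 and of 2 genes of the cluster, Chrna3 and Chrnb4, are shown as examples of genes that were highest in the same library. Chrna5 and Chrnb2 were also highest there, and their windows are not shown. They lie at chr2:181039128-181039427, chr9:55026513-55026812 and chr9:55048495-55048794, all on the minus strand. The RefSeq start of Chrna4 lies inside the gene as GENCODE draws it. Chrna4 holds 3 GC boxes, Chrna3 1 GC box and Chrnb4 1 E-box.
Chrna4: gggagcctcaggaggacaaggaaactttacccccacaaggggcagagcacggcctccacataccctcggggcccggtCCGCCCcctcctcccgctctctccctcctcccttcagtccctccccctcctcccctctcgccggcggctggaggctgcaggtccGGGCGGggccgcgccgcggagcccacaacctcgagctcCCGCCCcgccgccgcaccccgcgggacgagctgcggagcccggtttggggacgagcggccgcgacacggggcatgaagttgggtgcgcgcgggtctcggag
Chrna3: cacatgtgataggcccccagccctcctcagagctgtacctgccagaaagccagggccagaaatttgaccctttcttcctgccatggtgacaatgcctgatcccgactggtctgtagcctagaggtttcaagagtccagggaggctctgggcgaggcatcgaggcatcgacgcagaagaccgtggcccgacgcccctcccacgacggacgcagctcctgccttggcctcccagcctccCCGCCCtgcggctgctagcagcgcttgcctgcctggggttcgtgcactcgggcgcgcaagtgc
Chrnb4: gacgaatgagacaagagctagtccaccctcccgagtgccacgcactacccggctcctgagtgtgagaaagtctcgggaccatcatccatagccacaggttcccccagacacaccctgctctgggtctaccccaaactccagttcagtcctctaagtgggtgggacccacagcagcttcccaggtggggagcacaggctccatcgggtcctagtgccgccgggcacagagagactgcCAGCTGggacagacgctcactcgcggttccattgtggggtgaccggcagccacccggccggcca

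Muscle-type nicotinic receptors combine alpha 1, beta 1 and delta with gamma in the fetus or epsilon in the adult. Chrnd (chr1:87190607-87200070), the delta gene, stood at 2.88 and 2.30 FPKM at KSR day 0 and at 4.93 and 3.27 FPKM at N2B27 day 0. It stood at 0.0244 and 0.0783 FPKM at KSR day 4 and at 0 and 0.0243 FPKM at N2B27 day 6. The lowest day 0 library (2.30 FPKM) was far above the highest differentiated one (0.0783 FPKM), and Chrnd fell by 1.77 (SE 0.22, adjusted p 0.000704) in KSR and by 2.31 (SE 0.22, adjusted p 0.000183) in N2B27. Chrng (chr1:87204657-87212694), the gamma gene 4586 bases further along the same strand, went the other way. It stood at 0 and 0.151 FPKM at KSR day 0 and at 0 and 0 FPKM at N2B27 day 0. It stood at 0.891 and 0.232 FPKM at KSR day 4 and at 1.32 and 1.54 FPKM at N2B27 day 6 and rose by 1.28 (SE 0.25, adjusted p 0.00449) in N2B27, and its KSR difference of 0.51 (SE 0.25, adjusted p 0.133) did not pass. Chrnb1 (chr11:69784036-69795943), the beta 1 gene, stood at 2.36 and 2.06 FPKM at KSR day 0 and at 5.71 and 2.85 FPKM at N2B27 day 0. It stood at 2.26 and 3.41 FPKM at KSR day 4 and at 1.30 and 1.51 FPKM at N2B27 day 6, overlapping day 0. Chrnb1 fell by 1.08 (SE 0.30, adjusted p 0.0204) in N2B27 from a WT-labelled day 0 library that was the highest of the 8, and without that library the fall was 0.61 (adjusted p 0.142). The call was also lost without either N2B27 day 6 library (0.114 without WT, 0.0548 without KO) with both day 0 series as the reference (0.0923) and with no filter on low values (0.0841). In KSR Chrnb1 differed by 0.24 (SE 0.30, adjusted p 0.546).

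The alpha 1 gene Chrna1, without which muscle-type receptors do not form, reached at most 0.0341 FPKM, and Chrne at most 0.338 FPKM. The defining muscle genes Myod1, Myog and Myf5 were at most 0.163, 0.0984 and 0.0355 FPKM in the 8 libraries. The 8 muscle markers together summed to 5.19 to 13.3 FPKM at day 0 and to 8.06 to 19.2 FPKM after differentiation, mostly from Actc1, Tnnt1 and Des. Rapsn, which encodes the protein that clusters muscle-type receptors, stood at 3.0 and 3.30 FPKM at KSR day 0, 5.55 and 5.22 FPKM at N2B27 day 0, 0.352 and 0.504 FPKM at KSR day 4 and 0.0539 and 0.151 FPKM at N2B27 day 6. Like Chrnd it did not overlap between the states, and it fell by 1.54 (SE 0.19, adjusted p 0.000691) in KSR and by 2.53 (SE 0.19, adjusted p 6.93e-05) in N2B27. Musk, the kinase that organises the muscle synapse, was listed at 0 in 7 libraries. The remaining nicotinic genes, Chrna2, Chrna6, Chrna9, Chrna10 and Chrnb3, reached at most 0.506 FPKM.

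The 2 differentiated conditions, which differ in medium and day together, were compared directly. Of the 26 genes, 1 passed, Gabra3, against 9.80% of all genes tested (5.02% higher and 4.78% lower at N2B27 day 6). Gabra3 was lower at N2B27 day 6 by 1.90 on the log2 scale (SE 0.22, adjusted p 0.00733), at a mean of 0.366 FPKM against 4.16 FPKM, and both labels showed it. Gabra3 reached 1 FPKM only in the 2 KSR day 4 libraries, so it was tested only through the condition where it is high in this comparison. With no filter on low values its adjusted p in limma was 0.0399. Gabra4 (-0.83, adjusted p 0.0220), Gabrg1 (-0.42, 0.0311) and Grm3 (-0.73, 0.0444) then also passed, all lower at N2B27 day 6 and all below 1 FPKM in every library. Without the WT-labelled KSR day 4 library the value was -1.62 (adjusted p 0.0576). Unadjusted p was under 0.05 in 8 of the 26 (27.8% of all genes tested): Gabra3, Gria4 and, at higher levels in N2B27, Chrna4, Chrnb4, Chrng, Gabbr1, Glrb and Grm2. Gria4 stood at a mean of 1.04 FPKM at N2B27 day 6 and 2.42 FPKM at KSR day 4 (-0.75, SE 0.18, adjusted p 0.0511). Chrna4 stood at a mean of 31.9 and 7.51 FPKM (1.84, SE 0.47, adjusted p 0.0563). Without the KO-labelled N2B27 day 6 library, 7 genes passed, among them Chrna4 (2.69, adjusted p 0.0233) and Grm2 (2.51, adjusted p 0.0231).

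The labels were compared over the 4 conditions, 1 pair of libraries each. None of the 26 genes passed an adjusted p of 0.05 in limma and 0 had an unadjusted p under 0.05, against 0.00626% and 4.35% of all genes tested. The lowest fitted KO minus WT difference was that of Chrna3, -0.39 (95% interval -1.02 to 0.24). For Grik5 the difference was 0.12 (-0.14 to 0.37), for Glra1 -0.11 (-0.43 to 0.21), for Chrna7 -0.06 (-0.39 to 0.28) and for Grm2 -0.22 (-1.10 to 0.67). A test of whether the label difference changed between day 0 and differentiated libraries gave 0 genes in limma, and 0 at an unadjusted p under 0.05, against 0.00626% and 4.25% of all genes tested. The largest such value was that of Chrna4, -1.21 (95% interval -2.51 to 0.08). With 4 pairs of libraries, the intervals of 3 of the 26 genes in the first test (Grm2, Chrna3 and Chrnb2) and of 16 in the second reach past a difference of 1, which is 2-fold.

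**Figure D4:**
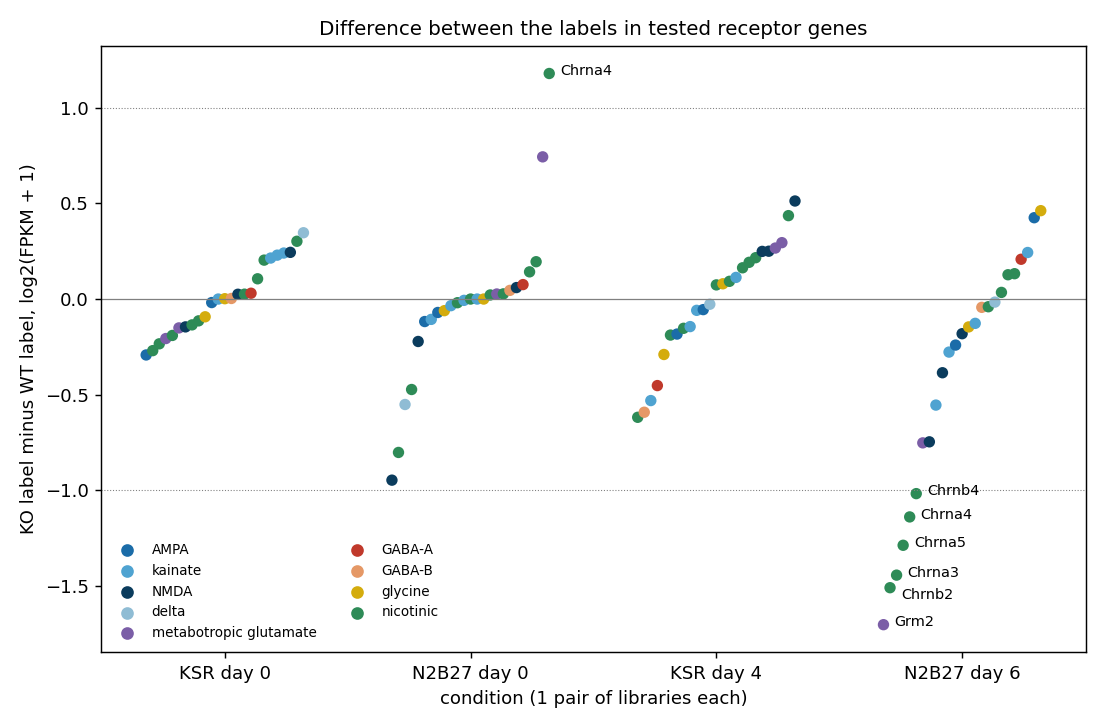
KO label minus WT label in log2(FPKM + 1) for 25 of the 26 tested receptor genes in each condition, 1 point per gene coloured by family and sorted within a condition, with dotted lines at a difference of 1; there is 1 pair of libraries per condition and no test. At N2B27 day 6, Grm2, Chrna3, Chrna4, Chrna5, Chrnb2 and Chrnb4 lie below -1, and at N2B27 day 0 Chrna4 lies above 1.

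Within single pairs, which have no replicate check, a difference of 2-fold means 1 on the log2(FPKM + 1) scale. At N2B27 day 6, 6 of the 26 genes were lower in the KO-labelled library by at least that much, where 3.44% of all genes tested were, and 0 were higher, where 1.47% were. They were Grm2 (-1.70), Chrnb2 (-1.51), Chrna3 (-1.44), Chrna5 (-1.29), Chrna4 (-1.14) and Chrnb4 (-1.02). The KO-labelled FPKM were 25.9% to 44.2% of the WT-labelled ones. The column of the WT-labelled library of this pair gives a later day than its title. A difference in day therefore cannot be told apart from the label here. In all, 18 of the 26 were lower at that pair (46.0% of all genes tested). Others at similar or higher levels in the KO-labelled library were Grik5 (25.0 and 29.8 FPKM), Gria3 (4.50 and 6.38), Chrna7 (5.09 and 4.92) and Glra1 (13.2 and 11.8).

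On the log2(FPKM + 1) scale, none of these 6 genes was lower by 2-fold in the other 3 pairs. In plain FPKM, Grm2 at KSR day 0 was at 36.6% of the WT-labelled value, both values being low (0.266 and 0.0975 FPKM). Whether the N2B27 day 6 differences departed from those at KSR day 4 was not tested. At KSR day 4, 0 of the 26 were lower and 0 higher by 2-fold (0.658% and 0.770% of all genes tested), and 13 were lower at all (49.5%). At KSR day 0, 0 were lower and 0 higher by 2-fold (0.896% and 0.883%), and 11 were lower at all (52.4%). At N2B27 day 0, 0 were lower and 1, Chrna4, higher (1.08 and 3.71 FPKM) by 2-fold (1.55% and 0.783%), and 12 were lower at all (56.7%).

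Markers of neurons were lower in the KO-labelled library at N2B27 day 6, and so were stem cell markers. The stem cell markers summed to 49.9 FPKM in the WT-labelled and 15.2 FPKM in the KO-labelled library there. Each of them was lower, for example Klf4 (19.8 and 3.43 FPKM) and Pou5f1 (17.7 and 6.69). At KSR day 4 their sums went the other way, at 69.3 and 119 FPKM. The 10 neuronal markers (Dcx, Map2, Elavl3, Elavl4, Rbfox3, Stmn2, Snap25, Syt1, Syp and Gap43) summed to 337 FPKM in the WT-labelled and 99.9 FPKM in the KO-labelled library. The KSR day 4 sums were 155 and 148 FPKM, and at day 0 to 71.2 to 118 FPKM, of which Stmn2 alone made 69.7 to 115 FPKM, and Dcx was listed at 0. All 10 were lower in the KO-labelled N2B27 day 6 library, for example Dcx (21.7 and 4.69 FPKM), Gap43 (92.1 and 21.5) and Elavl3 (36.8 and 9.13). Of markers of peripheral neurons and neural crest, Isl1 stood at 2.94 and 0.286 FPKM there, Tfap2a at 12.3 and 5.48, Foxd3 at 1.38 and 0.346 and Prph at 3.02 and 2.77. Progenitor markers summed to 712 and 540 FPKM, of which Fabp7 made 358 and 205. Among the others, Sox1 (42.9 and 56.9 FPKM) and Nes (84.3 and 89.6) were higher under the KO label, Pax6 (69.0 and 53.1) and Hes5 (76.0 and 53.1) lower, and Cdh2 stood at 82.0 FPKM under both. Of glial markers, Mbp stood at 12.4 and 10.4 FPKM, Aldh1l1 at 2.09 and 1.44, Aqp4 at 0.523 and 0.630 and Olig2 at 0.457 and 0.429. The part of these markers in the values of the receptor genes was not tested.

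Genes that work with the receptors were read from lists of scaffold and auxiliary genes and of genes for transmitter synthesis, transport and clearance. Of 46 scaffold and auxiliary genes, 35 were tested, and 26 rose and 3 (Cacng5, Pick1 and Rapsn) fell in KSR, where 28.5% of all genes tested rose and 20.0% fell. In N2B27, 23 rose and 2 (Pick1 and Rapsn) fell, where 29.7% of all genes rose and 26.2% fell. The median change over the 35 was 1.5 in KSR and 1.44 in N2B27, against 0.08 and 0.04 over all genes tested. Dlg4, encoding the postsynaptic scaffold PSD-95, stood at 0.621 to 1.39 FPKM at day 0 and at 21.1 to 29.9 FPKM after differentiation. It rose by 3.87 (SE 0.18, adjusted p 2e-05) in KSR and by 3.56 (SE 0.18, adjusted p 1.83e-05) in N2B27. Gphn, encoding gephyrin, the scaffold of glycine and GABA-A receptors, stood at 2.53 to 3.33 FPKM at day 0 and at 7.93 to 11.6 FPKM afterwards, and rose by 1.35 (adjusted p 0.00220) and 1.44 (adjusted p 0.00136). Lhfpl4, encoding a GABA-A auxiliary protein, was at most 0.149 FPKM at day 0 and stood at 6.66 to 12.9 FPKM afterwards. Cacng7, encoding an AMPA receptor auxiliary protein, rose in both series (2.49 and 1.88) and was lower at N2B27 day 6 than at KSR day 4 by 0.62 (adjusted p 0.0360). Ly6h, encoding a binding partner of nicotinic subunits, stood at 29.1 and 17.9 FPKM at KSR day 4 and at 106 and 130 FPKM at N2B27 day 6, and was higher in N2B27 (2.31, SE 0.25, adjusted p 0.00609). Of the 35 genes, 1 (Ly6h) was higher and 4, Cacng7 among them, were lower at N2B27 day 6 than at KSR day 4, against 5.02% and 4.78% of all genes tested.

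Of 23 transmitter genes, 16 were tested, and 8 rose and 3, among them Gad1 and Slc1a1, fell in KSR. In N2B27, 8 rose and 1 (Gad1) fell, beside the same shares of all genes (28.5% and 20.0% in KSR, 29.7% and 26.2% in N2B27), and the share that fell in KSR was near that of all genes. The medians over the 16 were 0.80 and 1.0, against 0.08 and 0.04 over all genes tested. Slc17a6, encoding the vesicular glutamate transporter VGLUT2, was listed at 0 at day 0 and stood at 2.24 and 2.78 FPKM at KSR day 4 and at 6.47 and 1.76 FPKM at N2B27 day 6. It rose by 1.81 (adjusted p 0.00898) in KSR and by 2.18 (adjusted p 0.00342) in N2B27. Gad1, encoding a GABA-synthesising enzyme, stood at 2.07 to 3.88 FPKM at day 0 and at 0.0757 to 1.07 FPKM afterwards, without overlap, and fell by 1.89 (adjusted p 0.00229) and by 0.97 (adjusted p 0.0297). Slc12a5, encoding the chloride exporter KCC2, rose by 1.13 (adjusted p 0.0282) and 1.58 (adjusted p 0.00629). The WT-labelled N2B27 day 6 library held 4.61 FPKM of it and the KO-labelled one 1.68. Ache, encoding acetylcholinesterase, stood at 10.02 and 1.54 FPKM at N2B27 day 6 and at most at 1.47 FPKM elsewhere, and rose by 2.30 (adjusted p 0.0119) in N2B27. In the 2 comparisons of the labels, 0 genes of either list passed.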

How the data were processed

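RNA-seq of 8 libraries was analysed. The authors deposited 1 table of FPKM named by gene symbol, made with STAR and Cufflinks on mm10 per the submitters' processing notes. The tool versions, the annotation and the use of strand were not given in the sources used here. Library preparation used a SMARTer mRNA kit and paired NovaSeq reads, per the labels' protocols. The table held 55188 rows, and 110 repeated rows, identical to their first, were joined.

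Titles decided which column belongs to which group. They conflict with the descriptions of 4 samples, namely both KO-labelled KSR samples and both WT-labelled N2B27 samples. The column of the WT-labelled N2B27 day 6 library gives a later day than the day 6 of its title. The column of its KO-labelled partner gives day 6. Depth is unknown. Relative depths were estimated from the most frequent ratio of low values (0.003 to 0.15 FPKM) to those of the WT-labelled KSR day 0 library. They were 0.973 to 1.16, but the search covered only a fixed range around equal depth. Few values lay at that ratio, for example 295 of 1275 in the WT-labelled N2B27 day 6 library.

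Genes with at least 1 FPKM in at least 2 libraries were fitted as log2(FPKM + 1) with limma 3.58.1 in R 4.3.3 (eBayes with a trend, Benjamini-Hochberg adjustment, threshold 0.05), with 4 conditions and the label as terms. A second fit added the interaction of label and differentiation. No count test was run, because FPKM are not counts. The 2 labels serve as the replicates of a condition, nothing says that cultures were repeated, and p-values measure only the spread between these libraries. Fits were tested on simulated data, with changes added only to genes at a mean log2(FPKM + 1) of at least 2. That test does not cover receptor genes below this level. Alternatives were another pseudocount (0.1), no filter, scaled libraries, no trend, another day 0 reference, no term for condition, and leaving out each library. Values in every library are given for genes that reached 5 FPKM or passed a test, and ranges for the rest. The genes and lists were chosen with earlier results of these data known. Coordinates are from GENCODE M21 (GRCm38/mm10). Tables and figures used Python 3.11.15, numpy 2.4.6, pandas 2.3.3 and matplotlib 3.10.9. A few genes of the family and of the lists are counted but not reported here by name.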

Additional observations from a re-analysis of the deposited data

Results flagged for a closer look

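The change of Gabra3, a GABA-A alpha subunit gene, differed between the series: its change to N2B27 day 6 minus its change to KSR day 4 was -1.93 on the log2(FPKM + 1) scale (SE 0.32, adjusted p 0.0337 by limma), a test of the difference itself. Gabra3 stood at 4.96 and 3.36 FPKM at KSR day 4, at 0.267 and 0.464 FPKM at N2B27 day 6 and at most at 0.0537 FPKM at day 0, so both labels showed it. Gabra3 reached 1 FPKM only in the 2 KSR day 4 libraries, so it passed the filter on low values only through the condition where it is high, which favours this contrast. The test of the difference of changes was run only with the filter and with all libraries. The alternatives below belong to the direct comparison of the differentiated libraries, which is another contrast. With no filter that comparison had an adjusted p of 0.0399 in limma. The direct comparison of the differentiated libraries lost its call without the WT-labelled KSR day 4 library (adjusted p 0.0576), and its adjusted p ranged from 0.00671 to 0.0576 over the alternatives.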

How the results depend on the processing

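Of the receptor genes, 12 of the 16 KSR calls and 15 of the 21 N2B27 calls were kept under every alternative run, and none reversed. With a library left out, 12 to 19 genes passed in KSR and 15 to 21 in N2B27. The single gene that passed between N2B27 day 6 and KSR day 4 became 4 with no filter, 2 with no trend, and 0 to 7 with a library left out (0 without the WT-labelled KSR day 4 library, 7 without the KO-labelled N2B27 day 6 library). Both tests of the labels gave 0 receptor genes under all alternatives. The Grm2 value of the label difference in differentiated against day 0 libraries (-0.97) ran from -1.97 to 0.026 and reversed without either N2B27 day 6 library (0.026).

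Over all genes, calls in KSR (7738) ran from 4872 (without the WT-labelled KSR day 4 library) to 8094, and were 4989 without the KO-labelled KSR day 0 library. Calls between N2B27 day 6 and KSR day 4 (1565) were 451 with no filter, 634 as a difference of changes and 65 to 1055 with a library left out. The labels gave 1 gene, 2 with a pseudocount of 0.1, 0 with no filter and 0 to 1 with a library left out. The second test of the labels gave 1 gene, and 0 with no filter and with any library left out. The cause of these shifts was not tested. With a library left out, its condition rests on 1 library, which is assumed to vary like the rest. The label comparison pairs the libraries by condition, and replicate numbers, which are all 1, allow no further block. Low values are the least certain, since the reads behind them are unknown.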
